A study of Mus musculus with 42 samples.

Results

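The genes described here are 33 voltage-gated and inward rectifier ion channel genes of the mouse, taken by name from a fixed list and grouped by ion and family. They are 4 sodium channel pore genes (Scn1a, Scn2a, Scn3a, Scn8a), 2 sodium channel beta subunit genes (Scn2b, Scn3b), 7 calcium channel pore genes (Cacna1a, Cacna1b, Cacna1c, Cacna1d, Cacna1e, Cacna1g, Cacna1h), 3 calcium channel auxiliary genes (Cacna2d1, Cacna2d2, Cacnb4), the HCN gene Hcn2, 9 voltage-gated potassium channel genes (Kcna1, Kcna2, Kcnb2, Kcnc1, Kcnd2, Kcnd3, Kcnh7, Kcnq3, Kcnma1) and 7 inward rectifier genes (Kcnj3, Kcnj4, Kcnj6, Kcnj9, Kcnj10, Kcnj15, Kcnj16). All 33 were among the 52636 gene lines of the count files. Kcnj6 and Kcnj15 lie in the segment of chromosome 16 that is present in an extra copy in Ts65Dn, the mouse model of Down syndrome used in the study.

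RNA-seq counts came from primary cultures of forebrain neurons taken at embryonic day 16 (3 genotypes, 3 libraries of each), and the labels give these cultures as male and female pooled. The genotypes were euploid, Ts65Dn, and Ts65Dn;Brwd1+/-, which carries the same extra segment with 1 copy of Brwd1 disrupted, so that the study could ask what follows when the copy number of that gene is restored. SMARCA2/4 ChIP-seq (4 immunoprecipitated and 4 input libraries per genotype, each from 1 hippocampus of each of 2 males aged 6 to 8 weeks) and ATAC-seq of sorted NeuN+ hippocampal nuclei from adult males (3 libraries per genotype) were available as 1 pooled peak list per genotype and assay. Every comparison of RNA was therefore made in embryonic cultures, and every comparison of chromatin in adult hippocampus.

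Voltage-gated sodium channels carry the rising phase of the action potential, voltage-gated calcium channels couple depolarisation to transmitter release, dendritic signalling and transcription, and voltage-gated potassium channels repolarise the membrane and set firing rate. HCN channels open on hyperpolarisation and pass a mixed cation current. Inward rectifiers hold the resting potential: the Kir3 subunits encoded by Kcnj3, Kcnj6 and Kcnj9 assemble into channels opened by G protein-coupled receptors, whereas Kcnj10 and its partner Kcnj16 serve mainly astrocytes, where they clear extracellular potassium. SMARCA2 and SMARCA4 are the ATPases of the BAF complex, which moves nucleosomes.

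Gene lines held between 17270070 and 25892802 counts per culture library. The RNA was compared with the labels in 2 respects. Brwd1 RNA was not called lower in the libraries labelled Ts65Dn;Brwd1+/- than in Ts65Dn (log2 fold change 0.13 ± 0.08 SE, adjusted p = 0.18) and was higher than in euploid (0.63 ± 0.08, adjusted p = 0.00018). These counts cover the whole gene and do not test the genotype. All cultures are labelled as both sexes pooled, but Xist, expressed from the inactive X chromosome of female cells, was at 0.526 to 1.12 CPM (counts scaled by library size) in the euploid and Ts65Dn libraries and at 1409 to 1982 CPM in those labelled Ts65Dn;Brwd1+/-. The Y-linked genes Ddx3y, Eif2s3y, Kdm5d and Uty summed to 194 to 223 CPM in the former and to 0.0557 to 0.149 CPM in the latter, so none of the 9 libraries was high in both. In both comparisons that use the libraries labelled Ts65Dn;Brwd1+/-, sex and genotype cannot be told apart. In Ts65Dn replicate 3 the summed neuronal markers were lower than in the other replicates (1167 CPM, against 2522 and 2884), and 25 of the 32 channel genes tested had their lowest value of all 9 libraries there. The labels do not say whether libraries of a genotype came from separate litters or dissections, so p-values measure the spread between these libraries only.

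In the euploid cultures Kcnj10 had the highest level per exon length of the 33 genes, at 122 ± 6.95 RPKM (CPM per kilobase of exon, SD, n = 3), and its distance to the next gene exceeded the summed SDs. Scn3b followed at 36.1 ± 5.96, Hcn2 at 27.3 ± 5.96, Kcnj4 at 24.1 ± 4.37 and Kcnd3 at 21.6 ± 1.53 RPKM, and none of these neighbours was separated from the next by more than their summed SDs. Among the sodium channel pore genes Scn2a stood highest at 16.7 ± 3.09 RPKM and Scn1a lowest at 1.88 ± 0.18. Kcnj6, at 0.755 ± 0.0504 RPKM, was the lowest of the genes that passed the filter on low counts. Kcnj15 did not pass it.

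Channel RNA was lower in Ts65Dn than in euploid cultures and was higher again in the libraries labelled Ts65Dn;Brwd1+/-. Of the 32 genes tested, 25 were lower in Ts65Dn and none was higher, with a median log2 fold change of -1.13, where 47.1% of all 17173 tested genes were called (21.3% lower and 25.8% higher) and the median of all genes was 0.04. The genes not called were Cacna1a, Cacna1c, Cacna1d, Cacna2d2, Cacnb4, Kcnj6 and Kcnj10. Libraries of the 2 genotypes did not overlap for 28 of the 32 channel genes, against 56.8% of all tested genes. Calls are from edgeR's quasi-likelihood test with Benjamini-Hochberg adjustment over all tested genes at 0.05. The count fell to 13 without euploid replicate 1 and to 16 without euploid replicate 2, where 37.5% of all genes were called in either fit. It was 15 without a filter on low counts, where 22.3% of all genes were called. Lost without euploid replicate 1 were Scn1a, Scn2a, Scn8a, Cacna1b, Cacna1e, Cacna2d1, Kcna1, Kcnb2, Kcnq3, Kcnma1, Kcnj3 and Kcnj4.

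Against Ts65Dn, the libraries labelled Ts65Dn;Brwd1+/- had 26 channel genes higher and 2 lower (Cacna1d and Kcnj10), with a median log2 fold change of 1.15, where 58.1% of all tested genes were called (27.6% higher and 30.4% lower). Cacna1a, Cacna1c, Cacnb4 and Kcnma1 did not pass the test. The libraries of these genotypes did not overlap for 28 of 32 channel genes, against 68.4% of all genes. A gene was called reversed when it passed the test in both comparisons in opposite directions, and 24 of the 25 lowered channel genes were (all but Kcnma1), against 79.4% of all genes called lower in Ts65Dn and 36.7% of all tested genes. Both comparisons use the same Ts65Dn libraries, so the count of reversed genes is a description. It was 10 channel genes without Ts65Dn;Brwd1+/- replicate 1, 14 and 15 without its replicates 2 and 3, 12 and 14 without euploid replicates 1 and 2, 10 without a filter on low counts and 13 with only the compared genotypes fitted. The count of called genes was 13 without Ts65Dn;Brwd1+/- replicate 1, where 47.8% of all genes were called, and 14 without a filter on low counts, where 29.4% were. Lost without that replicate were Scn1a, Scn2a, Scn8a, Scn2b, Cacna1b, Cacna1e, Cacna2d1, Kcna1, Kcnb2, Kcnh7, Kcnq3, Kcnj3, Kcnj4, Kcnj6 and Kcnj9.

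**Figure D1:**
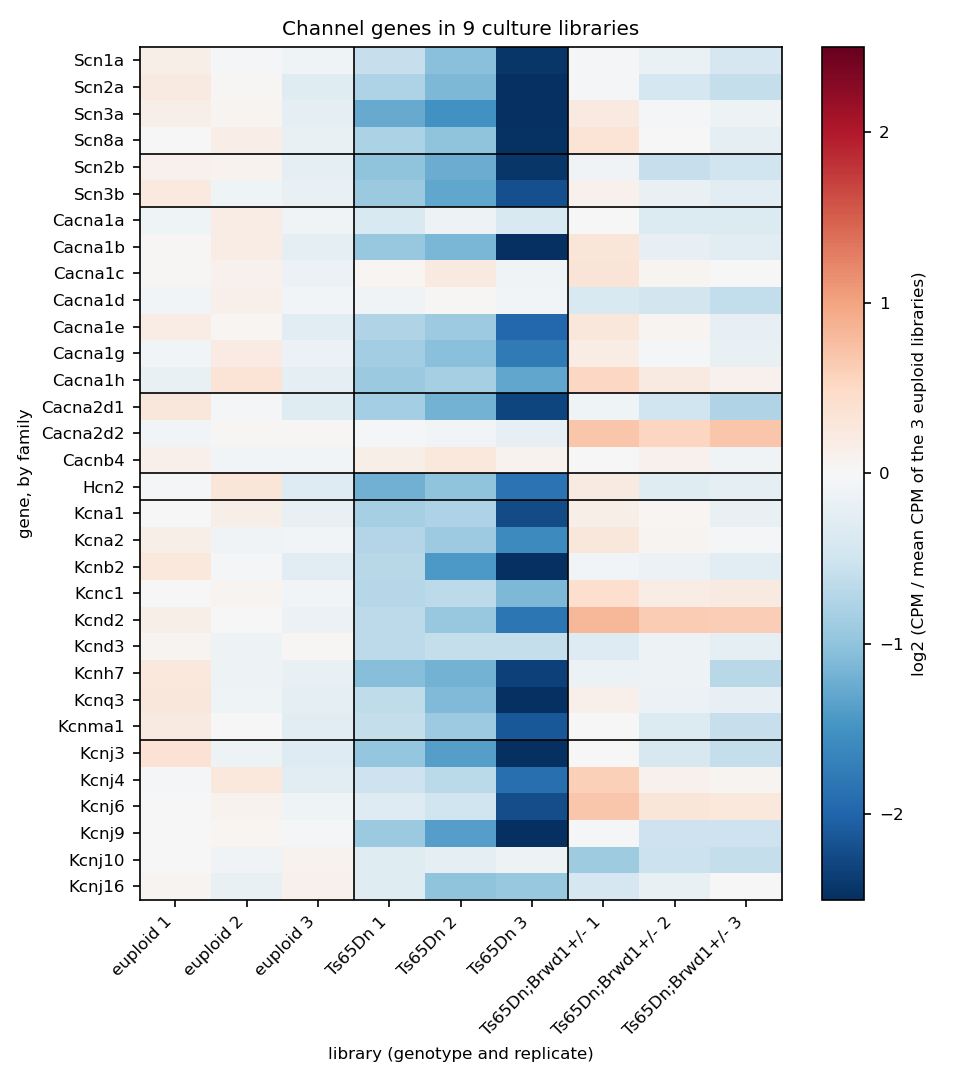
Level of each of the 32 channel genes tested (rows, by family, without Kcnj15) in the 9 culture libraries (columns, by genotype and replicate). Colour gives the log2 ratio of CPM to the mean of the 3 euploid libraries, on a scale ending at 2.5 in either direction. The Ts65Dn columns are low for most genes and lowest in replicate 3, whereas Cacna1c, Cacna1d, Cacna2d2 and Cacnb4 stay near their euploid level there.

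All 4 sodium channel pore genes fell in Ts65Dn, by log2 fold changes from -1.73 to -1.16, and all 4 rose again, by 0.96 to 1.76. For Scn1a and Scn2a these calls depended on the fit: the fall of each was called in 11 of 17 alternative fits, the rise of Scn1a in 8 and that of Scn2a in 6. Scn8a was called in 13 and 15 of 17. Without Ts65Dn replicate 3 the rises of Scn1a and Scn2a were 0.58 and 0.598. Scn3a, which encodes the channel typical of the embryonic brain, changed most. Its level was 72.5, 68.3 and 56.0 CPM in the euploid libraries, 27.6, 22.8 and 8.69 CPM in Ts65Dn, and 76.5, 64.4 and 60.02 CPM in the libraries labelled Ts65Dn;Brwd1+/-. The Ts65Dn values lay below all others, and the remaining genotypes overlapped. The log2 fold change of Scn3a was -1.73 ± 0.33 (SE, adjusted p = 0.0025) in Ts65Dn against euploid and 1.76 ± 0.33 (adjusted p = 0.0013) in Ts65Dn;Brwd1+/- against Ts65Dn, and both calls held in 17 of 17 alternative fits. Scn2a, the main channel of the immature axon initial segment, fell by 1.30 ± 0.37 on the log2 scale, Scn8a, the channel of mature initial segments and nodes, by 1.25 ± 0.35, and Scn1a, the channel of fast-spiking interneurons, by 1.16 ± 0.34.

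The beta subunits, which anchor the pore at the membrane and shape its gating, moved with it. Scn2b had 82.8, 81.6 and 64.6 CPM in euploid, 37.8, 32.3 and 14.1 CPM in Ts65Dn, and 72.1, 51.3 and 53.9 CPM in the libraries labelled Ts65Dn;Brwd1+/-. It fell by 1.44 ± 0.30 on the log2 scale (adjusted p = 0.0041) and rose by 1.07 ± 0.30 (adjusted p = 0.012). Scn3b had 234, 184 and 173 CPM in euploid, 104, 79.9 and 43.0 CPM in Ts65Dn, and 211, 172 and 162 CPM in the third genotype. Its fall of 1.38 ± 0.27 and rise of 1.27 ± 0.27 (adjusted p = 0.0031 for each) left both outer genotypes overlapping.

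Of the calcium channel pore genes 4 of 7 were called in Ts65Dn, where 47.1% of all tested genes were called (21.3% lower). Cacna1b (the N-type channel of presynaptic terminals), Cacna1e (R-type), Cacna1g and Cacna1h (T-type, open near rest) all fell in Ts65Dn and rose again, and Cacna1a (P/Q-type), Cacna1c and Cacna1d (both L-type, which signal to the nucleus) did not pass the test in Ts65Dn against euploid. Cacna1b, which changed most, stood at 214, 238 and 177 CPM in euploid, 108, 95.7 and 35.8 CPM in Ts65Dn, and 257, 183 and 171 CPM in Ts65Dn;Brwd1+/- libraries. The Ts65Dn values lay below the rest, with a log2 fold change of -1.39 ± 0.35 (adjusted p = 0.0094) and then 1.35 ± 0.35 (adjusted p = 0.0080). Cacna1g changed by -1.18 ± 0.21 and 1.18 ± 0.21, and Cacna1h rose by 1.30 ± 0.18 after a fall with an adjusted p of 0.0021.

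Cacna1a, which carries most transmitter release at mature central synapses, had 212, 261 and 216 CPM in euploid, 176, 209 and 177 CPM in Ts65Dn, and 229, 181 and 181 CPM in the libraries labelled Ts65Dn;Brwd1+/-. Every Ts65Dn value was below every euploid one, but the log2 fold change of -0.29 ± 0.12 did not pass (adjusted p = 0.069). It was called lower in 6 of 17 alternative fits, among them the replicate block on the compared genotypes alone (-0.33, adjusted p = 0.0079). Cacna1c showed 120.2, 127 and 106 CPM in euploid, 122, 137 and 111 CPM in Ts65Dn, and 146, 124 and 117 CPM in the third genotype, with all 3 genotypes overlapping. Its log2 fold change in Ts65Dn was 0.07 ± 0.11 (adjusted p = 0.66). Cacna1d differed from it: 92.4, 106 and 93.3 CPM in euploid and 91.7, 99.6 and 93.2 CPM in Ts65Dn overlapped, and the 75.1, 71.0 and 63.3 CPM of the libraries labelled Ts65Dn;Brwd1+/- lay below both. The fall of Cacna1d was 0.44 ± 0.08 on the log2 scale against Ts65Dn (adjusted p = 0.0011) and 0.48 ± 0.08 against euploid (adjusted p = 0.0016).

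The 3 auxiliary genes each behaved differently. Cacna2d1, a subunit bound by gabapentin, followed the pore genes. It had 285, 226 and 188 CPM in euploid, 129.7, 102 and 47.5 CPM in Ts65Dn, and 215, 166 and 138 CPM in the libraries labelled Ts65Dn;Brwd1+/-. Its log2 fold changes were -1.32 ± 0.33 (adjusted p = 0.0090) and 0.89 ± 0.32 (adjusted p = 0.039), a rise called in 9 of 17 alternative fits and of 0.57 without Ts65Dn replicate 3. Its paralogue Cacna2d2 had 27.6, 29.7 and 29.5 CPM in euploid, 28.2, 27.5 and 25.02 CPM in Ts65Dn, and 46.6, 42.3 and 46.8 CPM in the third genotype. The last 3 values stood above all others, by 0.75 ± 0.08 on the log2 scale against Ts65Dn (adjusted p = 1.4e-05) and by 0.64 ± 0.08 against euploid (adjusted p = 0.00015). Cacnb4, a beta subunit that brings pores to the membrane, had 37.3, 32.6 and 32.7 CPM in euploid, 37.7, 41.05 and 36.2 CPM in Ts65Dn, and 34.0, 37.0 and 32.0 CPM in the third genotype, overlapping throughout.

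Hcn2 had 84.99, 107 and 69.3 CPM in euploid, 37.9, 43.4 and 24.2 CPM in Ts65Dn, and 102, 70.4 and 73.2 CPM in the libraries labelled Ts65Dn;Brwd1+/-. It fell by 1.31 ± 0.24 on the log2 scale (adjusted p = 0.0020) and rose by 1.22 ± 0.24 (adjusted p = 0.0018), with Ts65Dn below both other genotypes.

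All 9 voltage-gated potassium channel genes fell in Ts65Dn, by log2 fold changes from -1.42 to -0.61, and 8 of them rose again. The largest fall was that of Kcnh7, an ERG channel, which had 28.3, 21.4 and 20.8 CPM in euploid, 11.2, 10.4 and 4.68 CPM in Ts65Dn, and 21.2, 21.5 and 14.4 CPM in the third genotype. It changed by -1.42 ± 0.29 (adjusted p = 0.0036) and 1.12 ± 0.29 (adjusted p = 0.0086). Kcnd2, the A-type channel of dendrites, had the largest rise. It had 38.9, 34.8 and 31.5 CPM in euploid, 22.4, 18.1 and 9.97 CPM in Ts65Dn, and 62.4, 54.3 and 54.1 CPM in the libraries labelled Ts65Dn;Brwd1+/-, so that no 2 genotypes overlapped. Kcnd2 fell by 1.06 ± 0.23 on the log2 scale (adjusted p = 0.0053), rose by 1.76 ± 0.23 (adjusted p = 0.00017) and ended 0.70 ± 0.23 above euploid (adjusted p = 0.043), a last call that held in 8 of 17 alternative fits.

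Its partner in A-type channels, Kcnd3, changed least of the 9 genes, with 218, 190.4 and 213 CPM in euploid, 132, 138 and 137 CPM in Ts65Dn, and 166, 189.7 and 175 CPM in the third genotype. Its spread within Ts65Dn was narrow, and the log2 fold changes were -0.61 ± 0.08 (adjusted p = 0.00021) and 0.38 ± 0.08 (adjusted p = 0.0020). Kcnc1, the Kv3 channel of fast-spiking neurons, fell by 0.82 ± 0.12 and rose by 1.10 ± 0.12. Kcnma1, the large-conductance channel opened jointly by calcium and voltage, fell by 1.08 ± 0.32 (adjusted p = 0.022), and its rise of 0.79 ± 0.32 in the fit did not pass (adjusted p = 0.059). The rise was called in 6 of 17 alternative fits, and was 0.46 without Ts65Dn replicate 3 (adjusted p = 0.035). The axonal delayed rectifiers Kcna1 and Kcna2, the M-current gene Kcnq3 and Kcnb2 changed by -1.41 to -1.04 and then by 1.14 to 1.26. The fall and the rise of Kcnq3 were each called in 10 of 17 alternative fits, those of Kcnb2 in 11 and 8, and the fall of Kcnma1 in 11.

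**Figure D2:**
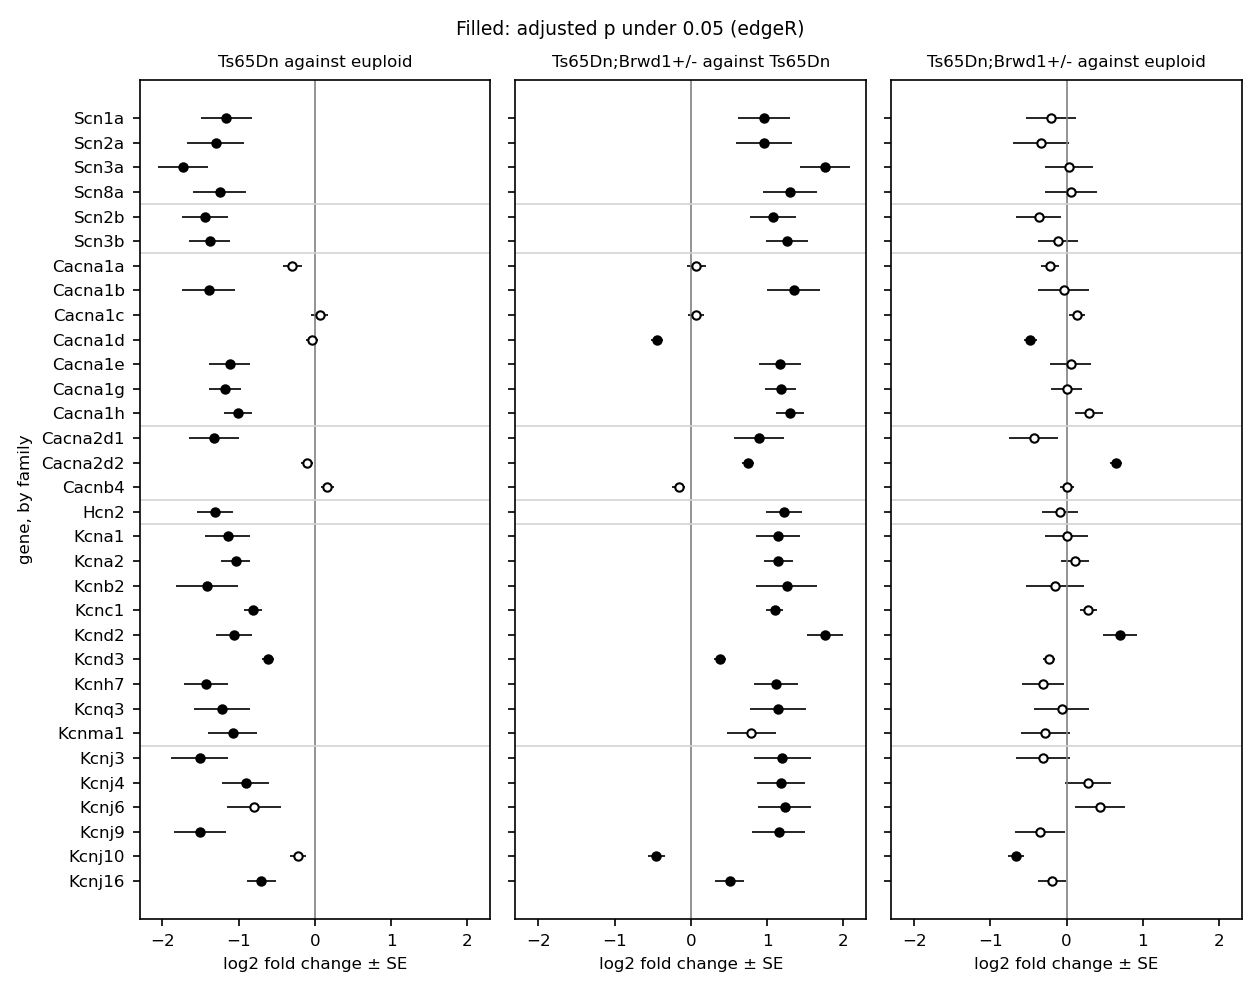
Log2 fold change with its SE for the 32 channel genes tested (rows, by family) in the 3 comparisons of genotypes (panels), from the fit across all genes of 9 culture libraries. Filled points have an adjusted p under 0.05: 25 in Ts65Dn against euploid, 28 in Ts65Dn;Brwd1+/- against Ts65Dn and 4 in Ts65Dn;Brwd1+/- against euploid.

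The inward rectifiers held both genes with an extra copy in Ts65Dn. Kcnj6 (chr16:94748636-94997701, minus strand, mm10), the Kir3.2 subunit, was not higher in Ts65Dn. It had 5.78, 6.14 and 5.37 CPM in euploid, 4.61, 4.10 and 1.24 CPM in Ts65Dn, and 9.36, 7.07 and 6.94 CPM in the libraries labelled Ts65Dn;Brwd1+/-. The 3 genotypes did not overlap, with Ts65Dn lowest. The log2 fold change against euploid was -0.80 ± 0.35 (adjusted p = 0.092), and -0.40 without Ts65Dn replicate 3, in which Kcnj6 was lowest. It was called lower in 2 of 17 alternative fits, DESeq2 (-0.82, adjusted p = 0.049) and the fit without Ts65Dn replicate 1 (-1.13, adjusted p = 0.045). Kcnj6 was 1.23 ± 0.35 higher in Ts65Dn;Brwd1+/- than in Ts65Dn (adjusted p = 0.012), and its difference of 0.43 ± 0.33 to euploid did not pass (adjusted p = 0.37). That difference was called in 3 of 17 alternative fits (both fits of only the compared genotypes and the fit without Ts65Dn replicate 3), and was 0.25 without Ts65Dn;Brwd1+/- replicate 1.

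Kcnj15 (chr16:95257558-95300260, plus strand), an inward rectifier better known from kidney, was all but absent from the cultures. It had 3, 4 and 4 counts in the euploid libraries, 2, 7 and 6 in Ts65Dn, and 7, 0 and 3 in the third genotype, that is at most 0.346 CPM. No effect of its extra copy was detectable at this depth. The 2 genes also differed in the letters before their starts. The bases upstream of 1 annotated start of each are shown 5′ to 3′ on the gene's strand (RefSeq, GRCm38, chr16:94997702-94997946 and chr16:95257308-95257557), with CG dinucleotides in capitals, to set 26 CG of the expressed gene beside 1 CG of the nearly silent one. Kcnj6 has another annotated start, whose window (chr16:94856641-94856940) held 9 CG, against 30 in the window of the start shown and 2 in that of Kcnj15.
Kcnj6 promoter: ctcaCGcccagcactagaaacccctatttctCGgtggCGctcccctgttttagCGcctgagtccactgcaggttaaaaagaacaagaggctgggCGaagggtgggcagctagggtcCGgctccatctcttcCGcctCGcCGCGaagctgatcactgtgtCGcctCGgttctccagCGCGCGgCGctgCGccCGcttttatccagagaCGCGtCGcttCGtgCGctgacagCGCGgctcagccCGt
Kcnj15 promoter: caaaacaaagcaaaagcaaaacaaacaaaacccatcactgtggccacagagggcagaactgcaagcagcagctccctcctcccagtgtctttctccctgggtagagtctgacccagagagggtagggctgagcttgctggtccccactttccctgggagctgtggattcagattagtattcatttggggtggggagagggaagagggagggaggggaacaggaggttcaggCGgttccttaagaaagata

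The other Kir3 genes were called lower in Ts65Dn, and their difference from Kcnj6 was not tested. Kcnj3 (Kir3.1) had 41.5, 29.8 and 25.9 CPM in euploid, 16.7, 12.5 and 4.77 CPM in Ts65Dn, and 32.4, 24.6 and 21.5 CPM in the libraries labelled Ts65Dn;Brwd1+/-, a fall of 1.51 ± 0.37 on the log2 scale (adjusted p = 0.0086) and a rise of 1.202 ± 0.37 (adjusted p = 0.019). Kcnj9 (Kir3.3) fell by 1.505 ± 0.35 and rose by 1.15 ± 0.35, and Kcnj4, a strong rectifier of forebrain neurons, fell by 0.91 ± 0.31 and rose by 1.18 ± 0.31. The fall of Kcnj4 was called in 10 of 17 alternative fits and came to -0.58 without Ts65Dn replicate 3, and the rises of Kcnj3 and Kcnj9 were called in 11 and 12. Of the glial pair, Kcnj16 fell by 0.70 ± 0.19 (adjusted p = 0.011) and rose by 0.51 ± 0.19 (adjusted p = 0.039), a rise called in 10 of 17 alternative fits, not without Ts65Dn replicate 3 (adjusted p = 0.105), and of 0.78 without Ts65Dn replicate 1. Kcnj10 had 663, 624 and 699 CPM in euploid, 536, 565 and 610.0 CPM in Ts65Dn, and 359, 453 and 439.6 CPM in the third genotype. Its groups stepped down without overlap, by 0.22 ± 0.11 (adjusted p = 0.12) in Ts65Dn and by 0.67 ± 0.11 in Ts65Dn;Brwd1+/- against euploid (adjusted p = 0.00088). The step in Ts65Dn was called in 3 of 17 alternative fits, among them the replicate block on the compared genotypes alone (-0.25, adjusted p = 0.033).

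**Figure D3:**
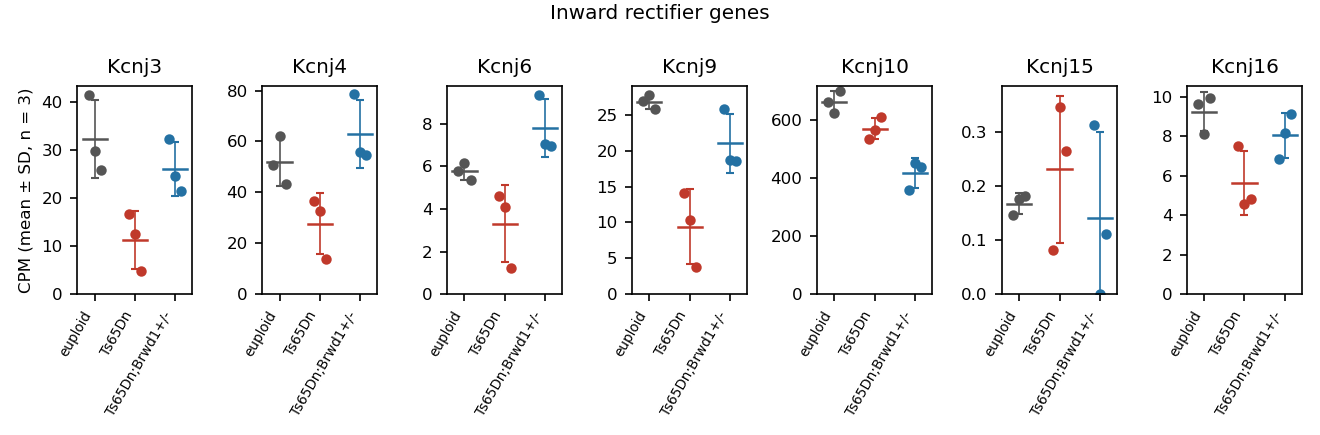
CPM of the 7 inward rectifier genes (1 panel each, axis from 0) in the culture libraries, with a point per library and the mean ± SD of the 3 libraries of each genotype. Kcnj3, Kcnj4, Kcnj6 and Kcnj9 are lowest in Ts65Dn, Kcnj10 is lowest in Ts65Dn;Brwd1+/-, and Kcnj15 stays at or below 0.346 CPM.

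Between the libraries labelled Ts65Dn;Brwd1+/- and euploid, 4 of 32 channel genes were called, Cacna2d2 and Kcnd2 higher and Cacna1d and Kcnj10 lower, where 29.5% of all tested genes were called (14.1% higher and 15.4% lower). The median log2 fold change of the channel genes was -0.08. Libraries did not overlap for 8 of 32 genes, against 45.9% of all. A gene that missed the threshold is not shown to be at the euploid level, with standard errors up to 0.38 on the log2 scale (Kcnb2). The count was 7 without Ts65Dn replicate 3 (33.2% of all genes called) and 8 when only the libraries of the compared genotypes were fitted (32.9%). It was 13 when those were blocked by replicate number as well, with 9 of the 13 lower, where 33.4% of all genes were called.

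Within a family the balance of subunits can be read as each gene's share of the summed CPM per kilobase, which does not change when all members fall alike. In the Kir3 trio Kcnj6 took 5.05, 6.18 and 6.02% in euploid, 8.52, 10.0 and 8.21% in Ts65Dn, and 9.12, 9.26 and 9.71% in Ts65Dn;Brwd1+/- libraries. Its share was thus higher in every library of both genotypes with the extra copy (8.92% ± 0.96 and 9.36% ± 0.31 against 5.75% ± 0.61, SD, n = 3), while the shares of Kcnj3 and Kcnj9 overlapped between all genotypes. Among the sodium channel pore genes Scn3a took 15.2% ± 0.16 in euploid, 11.6% ± 0.29 in Ts65Dn and 17.2% ± 1.02 in the third genotype, without overlap. In the Cav2 group Cacna1a went from 42.3% ± 2.92 to 61.4% ± 12.05 in Ts65Dn and was at 39.0% in Ts65Dn;Brwd1+/-, whereas Cacna1b went from 44.2% ± 1.68 to 28.1% ± 9.68 and 45.9%. In the Kv4 pair Kcnd2 took 23.97% ± 2.06, 18.5% ± 6.10 and 37.5% ± 3.32. With 3 libraries against 3 a two-sided exact permutation test cannot go below 0.1, so these shares are given without a test.

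**Figure D4:**
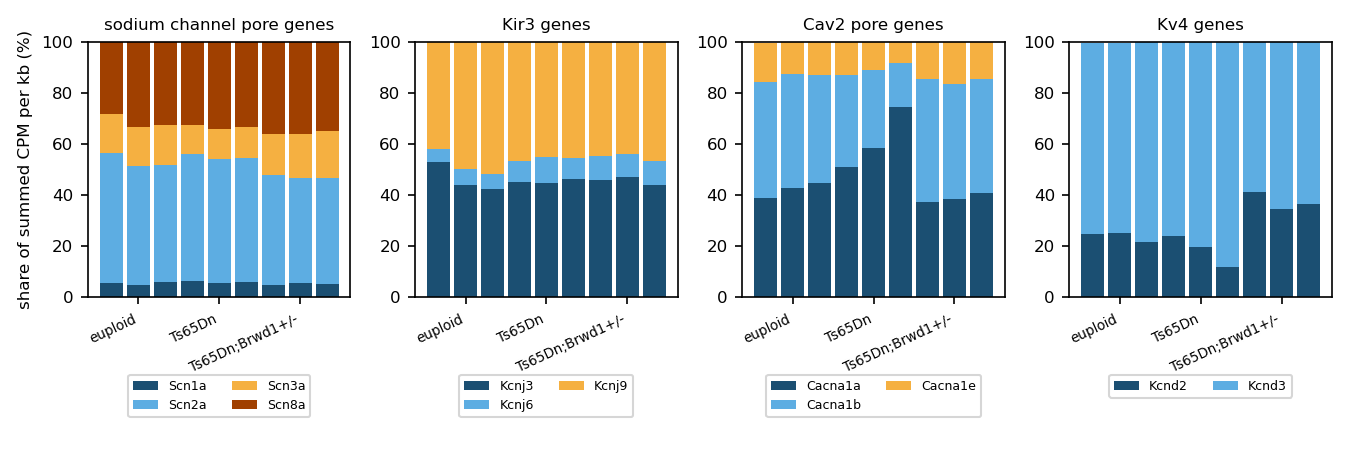
Share of each gene in the summed CPM per kilobase of its family (%, stacked to 100) in each culture library, for the sodium channel pore genes, the Kir3 genes, the Cav2 pore genes and the Kv4 genes. Scn3a and Cacna1b take less, and Cacna1a and Kcnj6 more, in Ts65Dn than in euploid.

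Neuronal markers moved with the channel genes. The summed CPM of 12 pan-neuronal markers was 4337 to 5387 in euploid, 1167 to 2884 in Ts65Dn and 4674 to 5826 in the libraries labelled Ts65Dn;Brwd1+/-, with 10 of the 12 lower in Ts65Dn and 10 higher again. That of 12 markers of GABAergic interneurons was 1170.3 to 1250.5, 266 to 452 and 1642 to 1802, with 12 of 12 lower and then higher, and that of 12 glutamatergic markers was 1272 to 1648, 344 to 857 and 1246 to 1702. Astrocyte markers summed to 3532 to 4361, 4019 to 4723 and 4120.2 to 4681 CPM, vascular and meningeal markers (1 of 12 at 0 in all libraries) to 344 to 397, 631 to 881 and 241 to 282, and cell cycle genes to 289 to 312, 398 to 467 and 707 to 717. Oligodendrocyte lineage markers summed to 126 to 147, 143 to 171 and 289 to 337 CPM, microglial markers to 26.8 to 37.4, 42.9 to 53.4 and 18.2 to 25.2, and choroid plexus markers to 176 to 787, 245 to 296 and 67.7 to 77.0. Not all of a list moved with its sum. In Ts65Dn against euploid 5 astrocyte markers were higher and 2 lower of 11 tested, 6 and 2 of 11 vascular and meningeal, 4 and 3 of 11 choroid plexus, and 2 and 1 of 9 oligodendrocyte lineage markers. Of the 7 microglial markers tested 1 was higher and 2 were lower (Aif1 and Csf1r), with a median log2 fold change of -0.51. In bulk samples fewer cells of a type and less RNA per cell cannot be told apart, and the part of these markers in the channel results was not tested.

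Set against the pan-neuronal sum of its own library, most channel genes no longer separated Ts65Dn from euploid. Of the 32 genes, 20 overlapped, 6 were lower in every Ts65Dn library (Scn3a, Scn2b, Cacna1b, Kcnh7, Kcnj3 and Kcnj9), and 6 were higher (Cacna1a, Cacna1c, Cacna1d, Cacna2d2, Cacnb4 and Kcnj10). The ratio of Ts65Dn to euploid means had a median of 1.04 and ran from 0.651 for Scn3a to 2.88 for Cacnb4. By the same scaling 1.85% of all 17173 tested genes were lower in every Ts65Dn library and 84.2% were higher, with the marker sum itself lower there. For Ts65Dn;Brwd1+/- against euploid, 18 overlapped, 10 were lower and 4 were higher (Cacna2d2, Kcnc1, Kcnd2 and Kcnj6), with a median ratio of 0.913, where 20.2% of all tested genes were lower and 11.1% higher. These ratios are a description, since the markers were themselves called.

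Channel genes outside the 33 went the same way in the main. Of 73 further channel genes 63 were tested, and 38 were lower and 6 higher in Ts65Dn, with a median log2 fold change of -0.83, where 21.3% of all tested genes were lower and 25.8% higher. Kcna3 (-1.96 ± 0.16), Kcns2 (-1.85 ± 0.38) and Kcnh1 (-1.77 ± 0.30) fell most. Against Ts65Dn, 43 were higher and 9 lower in the libraries labelled Ts65Dn;Brwd1+/-, where 27.6% of all tested genes were higher and 30.4% lower. The largest rise was that of Scn9a at 2.77 ± 0.58, which reached 1.16 CPM at most. Against euploid 11 were higher and 8 lower, a share of 30.2% beside 29.5% of all tested genes.

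Of 22 genes for partners of channels 21 were tested, and 15 were lower and 1 was higher in Ts65Dn, where 47.1% of all tested genes were called. Dpp10 (-1.88 ± 0.36) and Dpp6 (-1.35 ± 0.34), which escort Kv4 channels, and Fgf13 (-1.54 ± 0.21), which binds sodium channels, fell most. The gene that rose was Rest, the repressor of neuronal genes, including channel genes, in cells that are not neurons. It had 26.4, 27.1 and 30.3 CPM in euploid, 36.0, 44.4 and 50.7 CPM in Ts65Dn, and 19.0, 21.5 and 21.4 CPM in Ts65Dn;Brwd1+/- libraries, with no overlap. Its log2 fold changes were 0.65 ± 0.12 (adjusted p = 0.0015) and -1.08 ± 0.12 (adjusted p = 2.4e-05). Whether Rest took part in the change of the channel genes was not tested. Kcnip2 (2.46 ± 0.32), another Kv4 partner, Kcnab3 (1.84 ± 0.22) and Dpp10 (1.81 ± 0.35) rose most against Ts65Dn, where 14 rose and 1 fell, beside 58.1% of all tested genes called. Against euploid 5 partners were higher and 3 lower, where 29.5% of all tested genes were called. Kcnip2 was higher by 1.23 ± 0.29, Kcnab3 by 0.99 ± 0.21 and Kcnip3 by 0.96 ± 0.10, and Kcne2 (at most 1.58 CPM) fell by 1.45 ± 0.46, Kcnmb2 by 0.89 ± 0.26 and Rest by 0.44 ± 0.12 on the log2 scale.

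In adult hippocampus, SMARCA2/4 peaks named 24 of the 33 channel genes in the euploid list, 7 in the Ts65Dn list and 4 in the Ts65Dn;Brwd1+/- list, where 29.2, 3.23 and 3.69% of 22028 protein-coding genes were named. Peaks of a promoter class, which reach at most 3 kb from a start, named 20, 4 and 1 channel genes, against 25.5, 2.01 and 2.47% of all genes. The lists themselves held 22667, 1290 and 1873 peaks. Each is 1 pooled list without replicates, so the genotypes were not tested against each other. Channel genes are long, with a median span of 159 kb against 17.3 kb over protein-coding genes. Whether length bears on the number of genes named was not tested. Of the 142 euploid peaks at channel genes 40.1% were of a promoter class, against 60% of all euploid peaks.

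The euploid SMARCA2/4 peaks were most numerous at Scn8a with 18, Kcnj6 with 17, Cacna1c with 14 and Cacna1h with 10. Of the 142, 3 (2.11%) overlapped the Ts65Dn list and 5 (3.52%) the Ts65Dn;Brwd1+/- list by at least 1 bp, against 2.67 and 3.82% of all euploid peaks. Of the 9 Ts65Dn peaks at channel genes 1 had a q-value under 0.05, and of the 7 in Ts65Dn;Brwd1+/- 2 did. The Ts65Dn promoter-class peaks lay at Cacna1h, Kcnc1, Kcnma1 and Kcnj10, with q-values of 0.29, 0.43, 0.090 and 0.28, and the 1 of Ts65Dn;Brwd1+/- lay at Kcna1 with a q-value of 0.28. For Kcnj10 the Ts65Dn peak (chr1:172343704-172343757, intron, fold enrichment 3.61) was its only peak in any list.

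Open chromatin showed another pattern. ATAC peaks named 22 channel genes in the euploid list and 28 and 27 in the Ts65Dn and Ts65Dn;Brwd1+/- lists, where 41, 51.7 and 51.6% of protein-coding genes were named, and promoter-class peaks named 16, 27 and 24, against 38.1, 47.2 and 46.8%. The lists held 15521, 29195 and 30244 peaks. All 16 channel genes with an open promoter in euploid had one in the other lists, among them Scn2a, Scn3b, Cacna1a, Cacna1b, Kcnd2, Kcnj3, Kcnj6 and Kcnj9. Of the 55 euploid ATAC peaks at channel genes 50 (90.9%) overlapped the Ts65Dn list and 53 (96.4%) the Ts65Dn;Brwd1+/- list, against 96.7 and 96.2% of all euploid ATAC peaks. Scn1a, Scn3a, Kcnj15 and Kcnj16 were named by no peak of either assay.

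**Figure D5:**
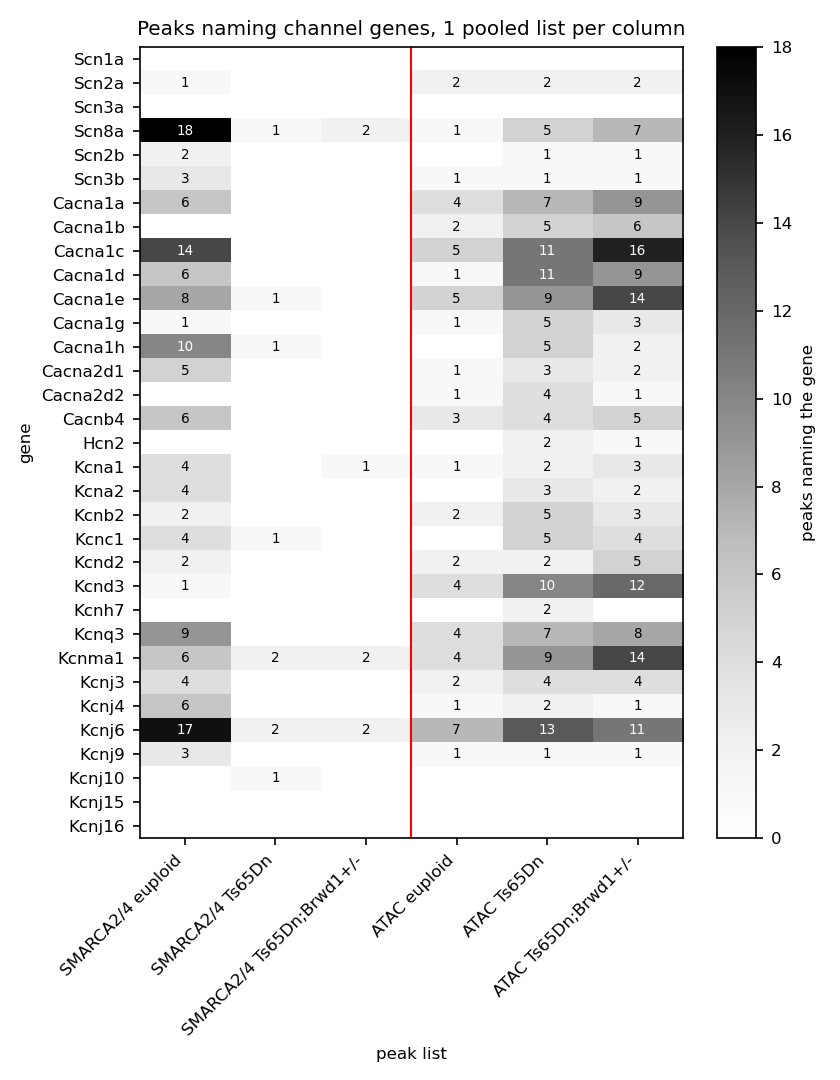
Number of peaks that name each channel gene (rows) in the 3 SMARCA2/4 and 3 ATAC lists (columns, 1 pooled list per genotype), by shade. SMARCA2/4 peaks lie mostly in the euploid column (142 peaks, against 9 and 7), whereas ATAC peaks are more numerous in the trisomic columns (140 and 147, against 55).

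At 1 site peaks of all 6 lists met, in an intron of Kcnj6. The euploid SMARCA2/4 peak (chr16:94782400-94782515) had a fold enrichment of 4.30 and a q-value of 0.00022, the Ts65Dn peak (chr16:94782437-94782490) 3.39 and 0.11, and the Ts65Dn;Brwd1+/- peak (chr16:94782453-94782573) 4.10 and 0.0059. The ATAC peaks around it were 374, 819 and 766 bp wide in the 3 genotypes in the same order, with q-values of 1.1e-07, 9.3e-21 and 1.6e-23. The segment is present in an extra copy in both trisomic genotypes. The SMARCA2/4 peaks were called against input. The study's methods name an input for ChIP-seq only, and no ATAC-seq input is among the samples. No correction of the ATAC lists for the extra copy is therefore described. An intron of Kcnma1 held the 1 Ts65Dn SMARCA2/4 peak at a channel gene with a q-value under 0.05 (chr14:23885637-23885688, fold enrichment 3.82, q-value 0.038), beside a Ts65Dn;Brwd1+/- peak (chr14:23885711-23885803, fold enrichment 2.96, q-value 0.28). Euploid peaks overlapped both, and ATAC peaks of all 3 lists spanned them with fold enrichments of 4.65, 6.81 and 5.63.

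Both sites are shown for these shared peaks, with the promoter peaks of the remaining Kir3 genes, which were found in the euploid SMARCA2/4 list and lay in ATAC peaks of all 3 genotypes (Kcnj3, chr2:55435809-55435899, fold enrichment 3.46, and Kcnj9, chr1:172329453-172329628, fold enrichment 3.12). All are read 5′ to 3′ on the strand of the gene in GRCm38. Capitals mark the 38 bases covered by all 6 lists in Kcnj6 (chr16:94782453-94782490), the Ts65Dn and Ts65Dn;Brwd1+/- peaks in Kcnma1 (chr14:23885637-23885803 in all), and CG dinucleotides in Kcnj3 and Kcnj9.
Kcnj6 intron: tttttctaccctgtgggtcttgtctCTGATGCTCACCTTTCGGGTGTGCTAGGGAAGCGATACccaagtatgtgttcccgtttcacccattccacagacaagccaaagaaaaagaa
Kcnma1 intron: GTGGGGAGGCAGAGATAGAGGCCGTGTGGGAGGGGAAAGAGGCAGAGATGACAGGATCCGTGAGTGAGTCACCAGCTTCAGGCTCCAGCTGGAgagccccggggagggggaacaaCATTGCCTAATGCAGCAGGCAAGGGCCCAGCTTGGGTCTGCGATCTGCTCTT
Kcnj3 promoter peak: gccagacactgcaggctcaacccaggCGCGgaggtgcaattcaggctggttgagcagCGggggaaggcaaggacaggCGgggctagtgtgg
Kcnj9 promoter peak: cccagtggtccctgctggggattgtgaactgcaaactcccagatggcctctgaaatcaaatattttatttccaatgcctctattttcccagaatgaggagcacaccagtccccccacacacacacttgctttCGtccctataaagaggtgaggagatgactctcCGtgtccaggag

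Promoter windows of 250 bases before to 50 after a start were held for 25 of the 33 genes (36 windows). They had a median of 16.5 CG dinucleotides, against 7 over all 32851 windows, and the GC box GGGCGG stood on either strand in 47.2% of them, against 35.7% of all. The AP-1 motif TGANTCA was in 0 of the 36, against 7.81% of all windows. In windows of 200 bases centred on euploid SMARCA2/4 peaks, which reach past most of them (median width 93 bp), it was in 16 of 142 at channel genes (11.3%), against 8.04% of all, and the capitals of the Kcnma1 intron hold it as TGAGTCA. In those windows the GC box was in 12.7% at channel genes, against 19.8% of all. In such windows of the euploid, Ts65Dn and Ts65Dn;Brwd1+/- ATAC peaks it was in 20, 25.7 and 19% at channel genes, against 43.2, 30.5 and 28.3% of all. A match describes letters and not binding.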

How the data were processed

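Gene counts of 9 culture libraries were deposited by the authors as raw counts. The submitters' processing notes name HISAT2, featureCounts, DESeq2 and mm10; whether counting used strand is not given in the sources used here. The 5 lines naming no gene held 37.4 to 40.0% of counts and were left out. Peak lists deposited by the authors give a fold enrichment ratio and a q-value per peak, called by the authors on pooled libraries against input for ChIP-seq, with depth unknown; 2770, 880 and 783 SMARCA2/4 peaks had a q-value of 0.05 or more.

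Genes passing filterByExpr were scaled by TMM and fitted over all 9 libraries with genotype as the only term in edgeR 4.0.16 (R 4.3.3, glmQLFit with robust estimates, glmQLFTest). CPM used TMM-scaled totals, and RPKM divided them by exon length (GENCODE M21). Alternatives used limma 3.58.1 and DESeq2 1.42.0. Scripts were tested on simulated data. The members and lists were chosen with earlier results of these data known. Values per library were given for Kcnj6 and Kcnj15, for the largest change of each family and direction, and for members whose groups were ordered unlike their family; of other channel and partner genes at most 3 a direction and comparison were named, and 1 that the rule selects is not reported here. Same-numbered euploid and Ts65Dn libraries deviated together (r = 0.13, 0.21 and 0.26 across genes). This pairing was read from the data and not from the labels. For replicates 1, 2 and 3 of Ts65Dn;Brwd1+/-, r was 0.096, -0.16 and 0.19 with euploid and 0.28, -0.12 and 0.21 with Ts65Dn. Replicate 2 of that genotype thus did not deviate with its numbers. The main fit has no block, and fits with the replicate number as a block are alternatives. Peaks were assigned by the gene named in the list and placed in mm10 (GRCm38), and sequences were read with samtools 1.23.1. Figures used matplotlib 3.10.9.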

Additional observations from a re-analysis of the deposited data

How the results depend on the processing

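Without a filter on low counts 15 channel genes were called in Ts65Dn against euploid, 14 in Ts65Dn;Brwd1+/- against Ts65Dn and 10 were reversed, where more genes are tested and 22.3 and 29.4% of all genes were called. With only the compared genotypes fitted, 8 were called in Ts65Dn;Brwd1+/- against euploid (32.9% of all genes called) and 13 were reversed. The replicate block over all 9 libraries gave 25, 29 and 5 calls in the 3 comparisons, where 49, 59.8 and 32.2% of all genes were called. The replicate block on the compared genotypes alone, chosen after seeing the data, gave 27, 26 and 13, where 47.1, 56.8 and 33.4% of all genes were called. Under these blocks only the count of Ts65Dn;Brwd1+/- against euploid moved by over 1.5 times. Leaving out 1 library at a time, the calls ran from 13 to 26, from 13 to 29 and from 3 to 7, those reversed from 10 to 26 (10 without Ts65Dn;Brwd1+/- replicate 1, 14 and 15 without its replicates 2 and 3, 12 and 14 without euploid replicates 1 and 2), and the median log2 fold changes of channel genes from -1.35 to -0.83 and from 0.81 to 1.34, nearest to 0 without Ts65Dn replicate 3. Uncalled values of Cacna1c ran from -0.056 to 0.14 in Ts65Dn against euploid and from -0.021 to 0.15 in Ts65Dn;Brwd1+/- against Ts65Dn, those of Cacna1d in the former from -0.12 to 0.030, and those of Cacna1a in the latter from -0.040 to 0.16. With a q-value under 0.05 the Ts65Dn SMARCA2/4 list named 1 channel gene, and 0 under 0.01, and the Ts65Dn;Brwd1+/- list named 2 under either, while promoter-class peaks named 0 and 0 in both lists. The cause of these changes was not tested. In the fits that left out 1 library, 37.5 to 44.6, 47.8 to 57.2 and 21.6 to 33.2% of all genes were called in the 3 comparisons. No direction of a called gene changed under size factors of DESeq2, DESeq2 or limma. Depth limits Kcnj15, and the peak lists carry no replicate error.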
